A study of Mus musculus with 3 samples.

Results

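The histone-modifying enzymes described here are the genes whose symbol begins with Kmt, Kdm, Setd, Hdac, Sirt or Kat followed by a number, and which have at least 1 transcript annotated as protein coding. Kdm5c, Kdm5d and Kdm6a were left out of this choice. It gave 57 genes of the 55536 in the annotation, or of the 21901 with a protein-coding transcript. Erasers numbered 33, with 15 lysine demethylases (Kdm), 11 histone deacetylases (Hdac) and 7 sirtuins (Sirt). Writers numbered 24, with 8 each of the Kmt and Setd methyltransferases and the Kat acetyltransferases. The choice used names and annotation only, so its rule holds no level. It and the gene lists set beside it below were made with earlier results of these data known.

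Histone tails carry acetyl and methyl groups that are placed by writers and removed by erasers. Acetyl groups loosen chromatin and are found at active promoters and enhancers, whereas the effect of a methyl group depends on the lysine that carries it. In macrophages, inflammatory genes gain acetylation and H3K4 methylation when Toll-like receptor 4 is engaged, and part of this response is muted after a first exposure. Many enzymes of both kinds also act on proteins other than histones. Setd3, Setd6, Kdm8, Hdac6, Hdac10, Sirt3, Sirt4 and Sirt5 are known mainly for such other substrates.

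RNA from the chromatin fraction of bone-marrow-derived macrophages of C57BL/6J mice was depleted of ribosomal RNA and sequenced in 3 libraries. All 3 belong to 1 group, and cells without stimulation were not analysed here. The cells had 100 ng/ml lipid A, the Toll-like receptor 4 ligand of bacterial lipopolysaccharide, for 12 h, then a washout of 12 h, then lipid A at 100 ng/ml again for 90 min. Library preparation began with 1 µg of RNA in replicate 1, with 250 ng in replicate 2 and with 500 ng in replicate 3. The labels name the same donor entry for every library and do not say whether cultures or animals were separate, so the spread between libraries may be partly technical. Age and sex were not collected.

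Total expected counts over annotated genes were 12502177, 21683473 and 16844974 in replicates 1, 2 and 3. Genes with a protein-coding transcript held 34.2%, 27.4% and 29.4% of all TPM (transcript abundance corrected for length and scaled to a fixed sum per library), so every TPM below depends on how much RNA other features held. Rescaled to those genes, the median member would have 44.5 in place of 13.3 TPM. Of 10 macrophage markers, 9 passed 1 TPM in every library, with Adgre1 at 422 ± 65.5 and Cd163, the exception, at 0.12 ± 0.08 (mean ± SD, n = 3). Among 24 markers of other lineages (lymphoid cells, neutrophils, dendritic cells, erythroid cells and fibroblasts), 1 reached that level, Cd4 with 1.81 ± 0.21. In bulk RNA, fewer cells expressing a gene and less RNA per cell cannot be told apart. Levels are those of the deposited gene table unless a second table is named, which gives transcripts quantified from reads directly and is summed here per gene. In that second table, more markers of other lineages had a mean above 1 TPM. Cd3d had 16.3, Cd4 2.88 and Cd8a 2.00 TPM, and Zbtb46, Col1a1, Mpo, Xcr1 and Ms4a1 had 1.01 to 1.81 TPM. Where 3 values follow each other, they are replicates 1, 2 and 3 in that order, and values with ± are mean and SD over the 3 libraries.

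Nearly all of these enzymes had RNA on chromatin. A level of 1 TPM or more in every library was found for 54 of 57 members, against 41.2% of all genes with a protein-coding transcript. A level of 10 TPM or more was found for 30 members, against 19.3%, and 50 TPM or more for 11, against 5.06%. The median member had 12.1, 14.7 and 13.2 TPM. All genes with a protein-coding transcript had a median of 0.36 ± 0.01, and the 9033 of them that passed 1 TPM throughout a median of 11.0 ± 0.44. The median over all members therefore stood far above that of the whole annotation and slightly above that of genes detected in these cells. Without members whose mean was under 1 TPM, it was 15.7 TPM. The 2 kinds of enzyme differed here. Erasers, with a median of 8.02 ± 0.50 TPM, or 9.53 TPM without those members, lay below the median of detected genes. Writers, with 25.1 ± 2.95 TPM, lay above it. Ranked by mean TPM among genes with a protein-coding transcript, 54 members lay at or above the 50th percentile and 21 at or above the 90th.

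**Figure D1:**
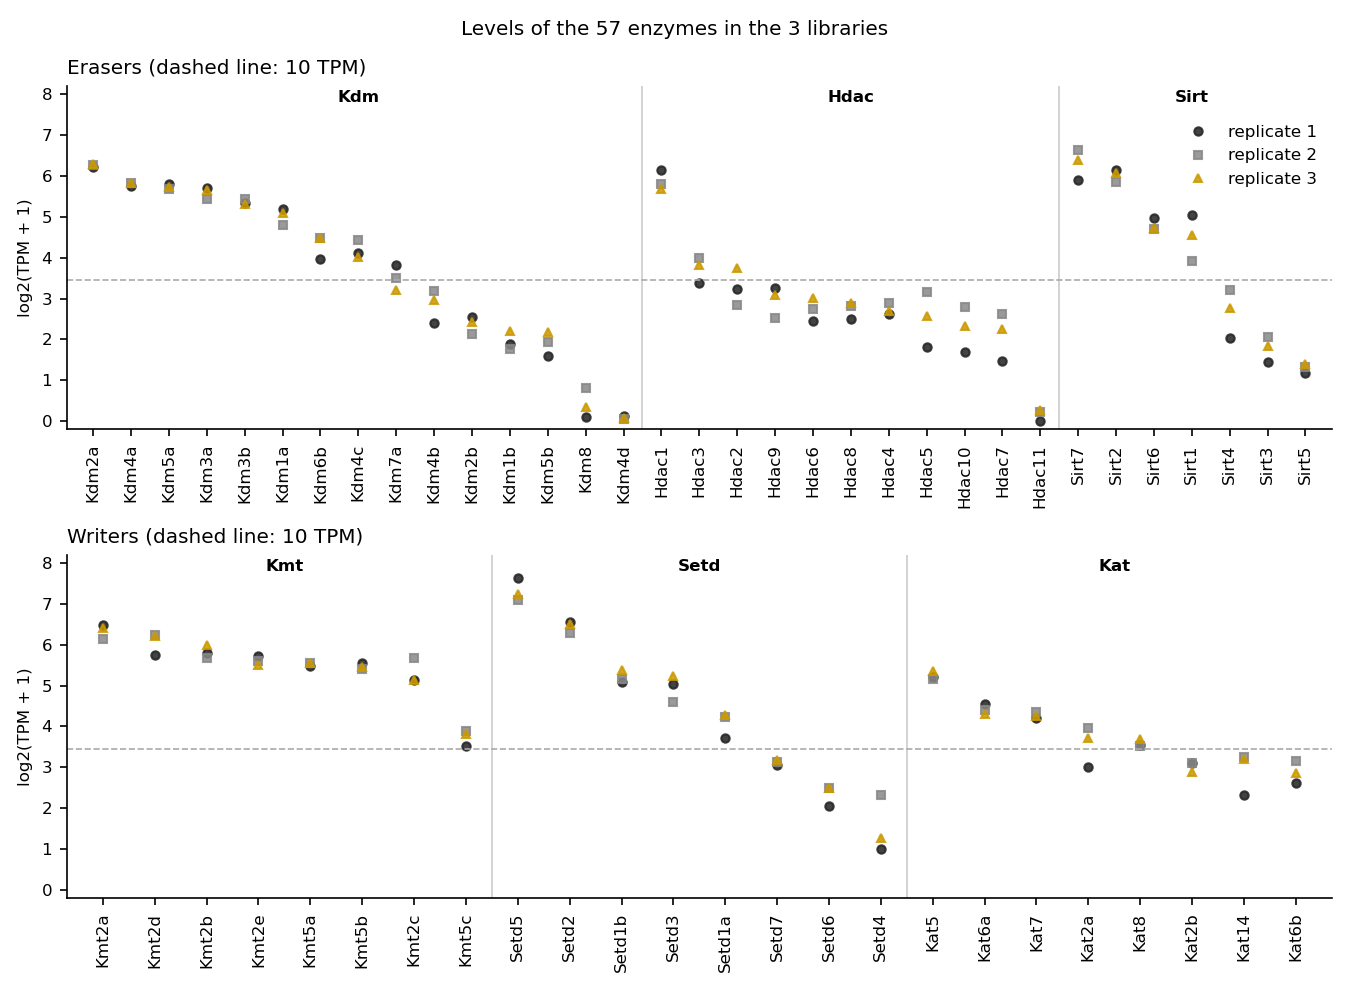
Level of each member in each library as log2(TPM + 1), erasers above and writers below, ordered by mean TPM within a family. Points of 1 gene lie close together for most genes, the Hdac family lies mostly below the dashed line at 10 TPM, and all 8 Kmt genes lie above it.

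Among the demethylases, 8 of 15 passed 10 TPM in every library and the family median was 16.9 ± 3.25 TPM. Kdm2a, an H3K36 demethylase that binds unmethylated CpG (chromosome 19, 4314419 to 4398285 of mm10), was the highest with 72.9, 75.6 and 77.8 TPM. Its values differed little, with an SD of 2.44. Its relatives were much lower: Kdm2b, which also serves in a Polycomb complex, had 4.90, 3.38 and 4.37 TPM. Kdm7a, a demethylase of H3K9 and H3K27, had 13.2, 10.3 and 8.33 TPM. No library of either gene overlapped those of Kdm2a, in the second table too.

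Kdm1a, the flavin-dependent H3K4 demethylase of the CoREST complex, had 35.7, 26.8 and 33.2 TPM. Its paralog Kdm1b had 2.68, 2.43 and 3.60 TPM, which put it more than 10 times below Kdm1a on the mean. Both H3K9 demethylases of the Kdm3 class were well covered. Kdm3a had 50.9, 42.2 and 49.6 TPM, and Kdm3b had 39.3, 42.3 and 39.0 TPM. Kdm3b was the lower of the pair in replicates 1 and 3 and level with Kdm3a in replicate 2. The second table put Kdm3b above Kdm3a in every library and above Kdm2a on the mean, mostly through 1 short transcript described below.

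The Kdm4 class, which removes methyl groups from H3K9 and H3K36, spanned the widest range of mean TPM, as a ratio, of any class. Kdm4a was high with 52.9, 55.6 and 55.8 TPM. Kdm4c had 16.2, 20.7 and 15.3 TPM. Kdm4b had 4.27, 8.13 and 6.85 TPM. Kdm4d, known from mouse testis, was the lowest member on the mean with 0.10, 0.03 and 0.05 TPM, which rest on 2, 1 and 2 expected counts. A count of 0 allows up to 3 counts, and those of Kdm4d did not exceed that bound. Its level was therefore low and poorly determined at this depth.

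Of the H3K4 demethylases of the Kdm5 class, Kdm5a had 54.96, 50.1 and 51.9 TPM and Kdm5b 2.03, 2.84 and 3.52 TPM. Their values did not overlap. Kdm6b, also called Jmjd3 (chromosome 11, 69398508 to 69413675), removes methyl groups from H3K27 and is known to be induced by lipopolysaccharide in macrophages. It had 14.8, 21.2 and 21.5 TPM, with the lowest value in replicate 1. An antisense gene that overlaps Kdm6b over 1188 bases, Kdm6bos, had 3.14 ± 0.94 TPM. Kdm8 had 0.08, 0.75 and 0.28 TPM, from 2, 20 and 9 expected counts.

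The deacetylases formed the lowest family, with a median of 5.69 ± 0.93 TPM, and 1 of 11 passed 10 TPM in every library. In the second table Hdac3 passed as well. The gene that passed in both was Hdac1, a catalytic subunit of the Sin3, NuRD and CoREST complexes, with 69.3, 54.6 and 50.1 TPM. Its close partner Hdac2 had 8.46, 6.21 and 12.4 TPM, below Hdac1 in every library. Of all 31-base stretches of the main Hdac1 protein-coding transcript, 62.7% also occur in transcripts of 12 other genes, so the Hdac1 level depends on how shared reads were divided. No stretch of either Hdac2 protein-coding transcript is shared.

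Hdac3, the deacetylase of the NCoR and SMRT corepressors, had 9.34, 15.0 and 13.2 TPM and missed 10 TPM in replicate 1 only. Hdac8, a class I enzyme not known from such complexes, had 4.63, 6.08 and 6.37 TPM. Class IIa enzymes shuttle between nucleus and cytoplasm and bind Mef2 factors. They lay between 3.57 TPM (Hdac7) and 6.93 TPM (Hdac9) on the mean, and no class IIa gene reached 10 TPM in any library of the gene table. In the second table, Hdac4 had 8.50, 14.0 and 11.1 TPM and Hdac9 13.9, 6.53 and 9.36 TPM, so both passed 10 TPM in part of the libraries.

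Within class IIa, Hdac9 had 8.58, 4.72 and 7.48 TPM and Hdac4 had 5.15, 6.39 and 5.43 TPM. These overlap, so their order is not resolved. Hdac5 had 2.52, 7.95 and 4.98 TPM and Hdac7 had 1.78, 5.17 and 3.75 TPM, both lowest in replicate 1. The tubulin deacetylase Hdac6 had 4.51, 5.69 and 7.03 TPM, and the polyamine deacetylase Hdac10 had 2.26, 5.88 and 4.05 TPM. Hdac11, the only class IV enzyme, was listed at 0 in replicate 1 and had 0.16 and 0.20 TPM in replicates 2 and 3. In replicate 1, a count of 0 allows up to 0.35 TPM for this gene.

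The sirtuins, which use NAD to remove acyl groups, split by the compartment of the protein. The 4 that act in the nucleus or cytoplasm had means from 22.8 to 80.1 TPM. The 3 mitochondrial ones had means from 1.47 to 5.72 TPM. Sirt7, a nucleolar deacetylase of H3K18, had the highest mean of the erasers in the gene table with 59.1, 98.3 and 83.0 TPM. Its values spread widely and overlap those of Kdm2a. This rank depended on the table: in the second one, Sirt7 had 49.9, 72.4 and 64.4 TPM, below Kdm2a with 110, 105 and 109 TPM in every library. There Sirt2, Hdac1 and Kdm4a also had higher means than Sirt7, of 81.3, 70.6 and 64.0 TPM, as did Kdm3b. Sirt2, mostly a cytoplasmic enzyme, had 70.4, 56.4 and 66.0 TPM, and Sirt6, a deacetylase of H3K9 at telomeres and promoters, had 30.2, 25.2 and 25.5 TPM.

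Sirt1, which also deacetylates p65 of NF-kB, had 31.9, 14.1 and 22.5 TPM, a range of more than 2 times. This was the only nuclear sirtuin with an SD above 0.5 on the TMM log2 CPM scale defined below. Sirt4 had 3.10, 8.25 and 5.81 TPM, and Sirt3 had 1.74, 3.17 and 2.57 TPM. Sirt5, a desuccinylase, had 1.27, 1.51 and 1.63 TPM. All 3 mitochondrial sirtuins were lowest in replicate 1 of the gene table, whereas Sirt5 was highest there in the second table, with 30.1, 19.4 and 22.0 TPM.

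All 8 Kmt genes passed 10 TPM in every library, and the family median, 47.7 ± 2.08 TPM, was the highest of the 6 families. Kmt2a (MLL1), an H3K4 methyltransferase (chromosome 9, 44803355 to 44881296), had 87.6, 69.3 and 83.9 TPM. Kmt2d, which places H3K4 monomethylation at enhancers, had 52.5, 74.9 and 72.7 TPM. Its partner at enhancers, Kmt2c, had 34.2, 50.3 and 33.9 TPM. Kmt2d lay above Kmt2c in each library. Kmt2b had 54.8, 50.1 and 62.9 TPM, and Kmt2e, which lacks methyltransferase activity of its own, had 51.8, 47.6 and 44.4 TPM.

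The Kmt5 enzymes methylate H4K20. Kmt5a, which adds the first methyl group, had 43.5, 46.0 and 46.2 TPM, and Kmt5b, which adds further ones, had 46.1, 41.1 and 42.6 TPM. These overlap, whereas in the second table Kmt5a, with 76.2, 69.5 and 80.3 TPM, lay above Kmt5b with 53.2, 52.7 and 52.3 TPM. Kmt5c had 10.6, 13.7 and 13.1 TPM and lay below both in every library.

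The highest member was Setd5, on chromosome 6 at 113077365 to 113153435 of mm10, with 196, 135 and 151 TPM from 7341, 9454 and 7985 expected counts. Each of these values lay above every library of every other member. In the second table, Setd5 had 193, 131 and 150 TPM and the highest mean, but replicate 1 of Kdm3b, at 166 TPM, lay within that range. Whether Setd5 is itself a methyltransferase is disputed. Setd2, the methyltransferase for H3K36 trimethylation behind elongating RNA polymerase II, had 92.3, 76.8 and 90.4 TPM. Kdm2a, Sirt7, Setd2 and Kmt2a, which follow Setd5 in the order of means, overlap among their libraries in the gene table, so their order is not resolved.

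Setd1b had 33.1, 34.5 and 40.4 TPM and Setd1a 12.1, 17.7 and 18.4 TPM. Both are catalytic subunits of H3K4 methyltransferase complexes, and Setd1b was higher in each library of the gene table. In the second table the pair was not separated, with 30.6, 29.9 and 36.2 TPM for Setd1b and 25.1, 32.5 and 35.9 TPM for Setd1a. Setd3, an actin histidine methyltransferase, had 32.1, 23.4 and 36.3 TPM. The other 3 were lower in every library. Setd7, which methylates H3K4 and several transcription factors, had 7.35, 7.72 and 8.1 TPM. Setd6, which methylates p65 of NF-kB, had 3.13, 4.62 and 4.64 TPM, and Setd4 had 1.01, 4.0 and 1.43 TPM.

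Acetyltransferases had the lowest median of the writer families, 11.3 ± 1.86 TPM, and none reached 50 TPM. In the MYST class, Kat5 (Tip60), the catalytic subunit of NuA4, led with 36.3, 34.9 and 40.1 TPM. In the second table Kat7 led instead, with a mean of 38.6 TPM against 28.9 TPM for Kat5. Kat6a had 22.3, 20.1 and 18.7 TPM and its paralog Kat6b 5.13, 7.94 and 6.23 TPM. Both are H3 acetyltransferases with Brpf partners, and their values did not overlap. Kat7 (Hbo1) had 17.6, 19.6 and 18.2 TPM. Kat8 (Mof), the H4K16 acetyltransferase, had 10.7, 10.6 and 12.0 TPM.

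In the GNAT class, Kat2a (Gcn5), the acetyltransferase of SAGA and ATAC, had 7.04, 14.7 and 12.1 TPM. Its paralog Kat2b (PCAF) had 7.61, 7.63 and 6.42 TPM. Kat2b was above Kat2a in replicate 1 and below it in the other 2, so the paralogs were not separated in the gene table. In the second table they were, with 18.3, 16.5 and 14.2 TPM for Kat2b, above Kat2a with 5.35, 10.8 and 9.46 TPM in every library. Kat14, a further ATAC subunit, had 4.02, 8.47 and 8.27 TPM.

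The median eraser was lower than the median writer in every library. The median eraser had 8.46, 8.13 and 7.48 TPM, and the median writer 27.2, 21.7 and 26.3 TPM. As erasers minus writers on the log2(TPM + 1) scale, the difference of medians was -1.55, -1.31 and -1.63, or -1.5 ± 0.17. The sign was the same in 3 of 3 libraries. All 3 measure the same genes, so the SD does not show how far the difference depends on the genes listed. No test of this difference was made, since genes of a list are not replicates. In every library, 13 of 33 erasers and 17 of 24 writers passed 10 TPM. The top ends of the lists were alike, with 6 erasers and 5 writers at 50 TPM or more. Families of both kinds overlapped. Family medians were 16.9 TPM for Kdm, 5.69 for Hdac and 22.25 for Sirt, against 47.7 for Kmt, 23.3 for Setd and 11.3 for Kat. The Kdm and Sirt medians both lay above the Kat median in each library. All 3 members under 1 TPM in a library, Kdm4d, Kdm8 and Hdac11, are erasers. Without the 8 members known mainly for other substrates, of which 6 are erasers, the difference was -0.91.

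**Figure D2:**
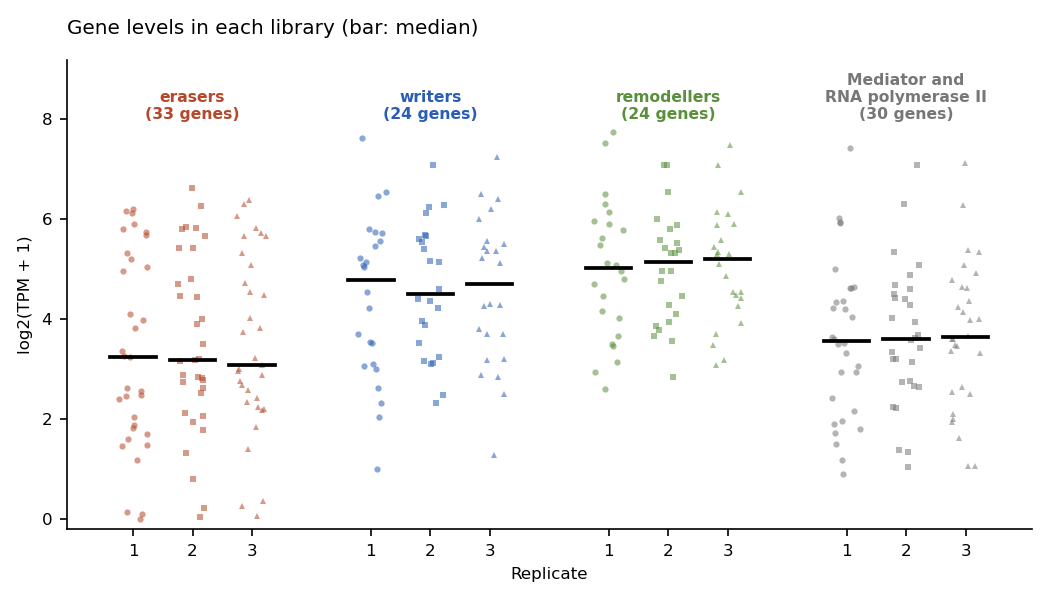
Level of each gene as log2(TPM + 1) by library for erasers, writers, chromatin remodellers and subunits of Mediator and RNA polymerase II, with a bar at the median. The eraser medians lie below the writer medians in all 3 libraries, while the upper ends of both lists overlap.

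Set beside 24 subunits of ATP-dependent chromatin remodellers, the 57 members had a median lower by 1.31, 1.17 and 1.38 on the log2(TPM + 1) scale. The remodellers, all 24 above 1 TPM throughout, had a median of 34.0 ± 2.32 TPM. The members, with a median of 13.3 ± 1.32 TPM, were higher by 0.14, 0.36 and 0.18 on that scale than 30 subunits of Mediator and RNA polymerase II, whose median was 11.2 ± 0.32 TPM. That difference was small, and its mean of 0.23 ± 0.12 had the same sign in 3 of 3 libraries.

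Writers and erasers with other names were looked at from a list of known enzymes. The 24 member writers had a median of 25.1 ± 2.95 TPM, and the 22 other writers, all above 1 TPM throughout, one of 22.1 ± 0.52 TPM. Ehmt2 (G9a), an H3K9 methyltransferase, had 99.0, 143 and 126 TPM. Nsd3, an H3K36 methyltransferase, had 153, 104 and 92.0 TPM, and Nsd1 had 62.5, 79.1 and 68.8 TPM. The lowest of the list was Smyd2 with 2.62, 4.35 and 5.26 TPM. The values of Ehmt2 and Nsd3 overlapped those of Setd5.

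Of 5 other erasers, 3 passed 1 TPM throughout. Jmjd1c, a relative of Kdm3a, had 182, 183 and 144 TPM and overlapped Setd5. Riox2 had 28.0, 21.8 and 22.4 TPM and Phf2 1.48, 3.04 and 3.18 TPM. Hr, known from hair follicles, was near 0 with 0.02, 0.03 and 0.05 TPM.

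Partner subunits of the enzymes were detected almost throughout. All 10 core partners of methyltransferases passed 1 TPM throughout, and their median was 14.6 ± 2.83 TPM. Eed, a Polycomb subunit, had 53.1, 54.95 and 50.4 TPM, Suz12 of the same complex had 32.2, 19.4 and 31 TPM, and Rbbp5 of the Kmt2 complexes had 16.1, 15.9 and 18.9 TPM. Dpy30, a small subunit of the Kmt2 complexes, was the lowest with 1.18, 1.86 and 1.51 TPM.

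Among 17 partners of deacetylases, 16 passed 1 TPM throughout, and the median was 12.7 ± 1.09 TPM. Ncor1, the corepressor that carries Hdac3, had 108, 122 and 120 TPM, several times the level of Hdac3 itself. Mta2 of NuRD had 48.1, 46.4 and 54.7 TPM, and Mbd2 had 38.9, 25.7 and 34.4 TPM. Rcor2 was the lowest with 1.32, 0.73 and 1.62 TPM. All 17 partners of acetyltransferases passed 1 TPM throughout, and their median was 9.22 ± 0.38 TPM.

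The largest of these acetyltransferase partners was Trrap, a scaffold of SAGA and NuA4, with 37.0, 70.6 and 59.9 TPM. Brpf1, the scaffold of Kat6a and Kat6b, had 40.8, 44.0 and 52.7 TPM, and Msl1, a partner of Kat8, had 24.1, 25.4 and 30.6 TPM. Tada2b of SAGA was the lowest with 1.81, 1.23 and 1.85 TPM.

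Much of the RNA of these genes was assigned to transcripts annotated as retaining an intron. For each gene, the percent of summed transcript TPM on such transcripts was computed where it has one and the gene passed 1 TPM throughout. The median over 25 erasers was 54.9%, 52.1% and 49.4%, and over 18 writers 36.4%, 41.6% and 38.8%. Over 5883 genes with a protein-coding transcript it was 50.8%, 46.4% and 47.0%. Erasers therefore lay above writers in each library. The transcript with the highest mean TPM was of the protein-coding type in 35 members, of the retained-intron type in 20, and of another noncoding type in Kat2a. It was a nonsense-mediated decay type in Sirt1. These counts cover all 57 members, whatever their level, and were not made for other genes. Of the 43 members with a retained-intron transcript and 1 TPM throughout, 44.2% had a mean share above 50%, against 46.5% of the 5883 genes.

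**Figure D3:**
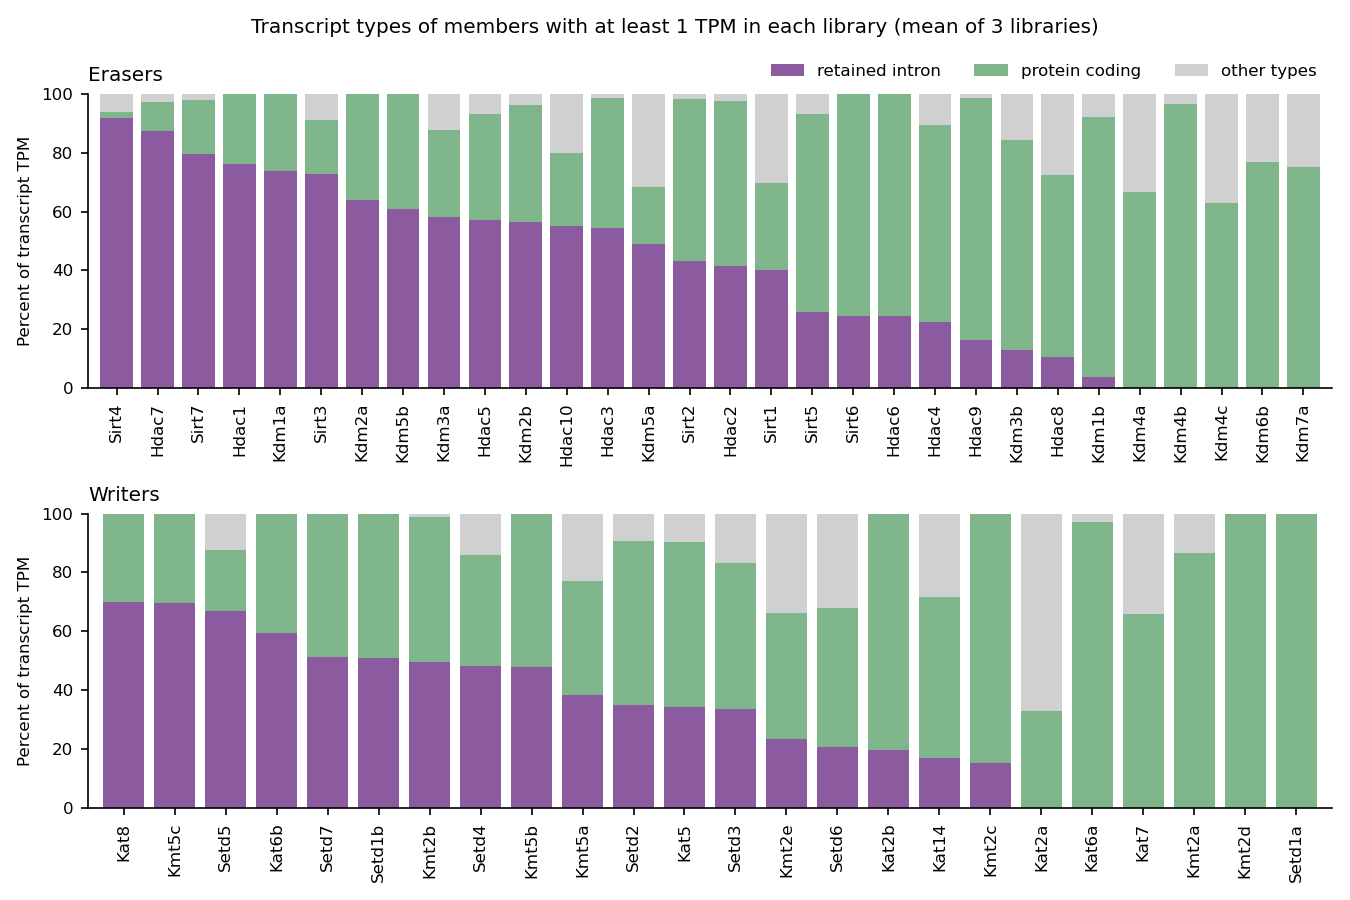
Percent of each member's transcript TPM on retained-intron, protein-coding and other transcripts, mean of 3 libraries, for the 54 members above 1 TPM throughout. Genes with no purple bar at the right of each row have no annotated retained-intron transcript, and the bars run from 91.8% in Sirt4 downwards among erasers and from 69.9% in Kat8 among writers.

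The share differed widely between genes of the same family, which also differed in level. Sirt7 had 86.1%, 73.3% and 79.0% of its TPM on retained-intron transcripts, while Sirt6 had 20.3%, 30.9% and 22.7%. Setd5, the highest member, had 71.9%, 63.6% and 65.6%, and its leading transcript, Setd5-209 of 2180 bases, is a retained-intron one. Setd2, by contrast, had 35.7%, 36.0% and 33.4%, and Setd2-201, its protein-coding transcript of 8350 bases, held 50.01% of its TPM. Kdm1a had 83.0%, 68.3% and 69.9%, and Kdm1b 0%, 0% and 11.4%. Hdac1 had 79.5%, 75.3% and 73.3%, above Hdac2 with 51.7%, 26.5% and 46.2%.

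Genes without an annotated retained-intron transcript hold no such share by construction, among them Kmt2a, Kmt2d, Setd1a, Kdm4a and Kdm6b. The labels and headers do not say how reads of unspliced RNA were divided among transcripts, and their part in these shares was not tested. For Kmt2a, Kmt2a-201 of 16461 bases held 53.3% of the gene's TPM and a protein-coding transcript of 521 bases, Kmt2a-206, held 15.4%.

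The spread between libraries was measured as the SD of log2 CPM (counts scaled to library size and by the TMM method of edgeR) over the 3 libraries. Its median was 0.31 over the 54 members above 1 TPM throughout, and 0.28 over all 9033 such genes with a protein-coding transcript. Both values rest mostly on replicate 1: without it they were 0.14 for members and 0.15 for all such genes, so the order of the pair turned. The level also changed this comparison. Among the 30 members with at least 10 TPM the median SD was 0.15, against 0.22 for all such genes. Among the 24 members below that it was 0.43, against 0.33. Without replicate 1 these became 0.08 against 0.12 and 0.27 against 0.19, in the same order. Across the 54 members, Spearman's rho between mean TPM and SD was -0.61, and across the 9033 genes it was -0.22. These describe genes within the same 3 libraries, which share depth, and genes are not independent replicates.

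**Figure D4:**
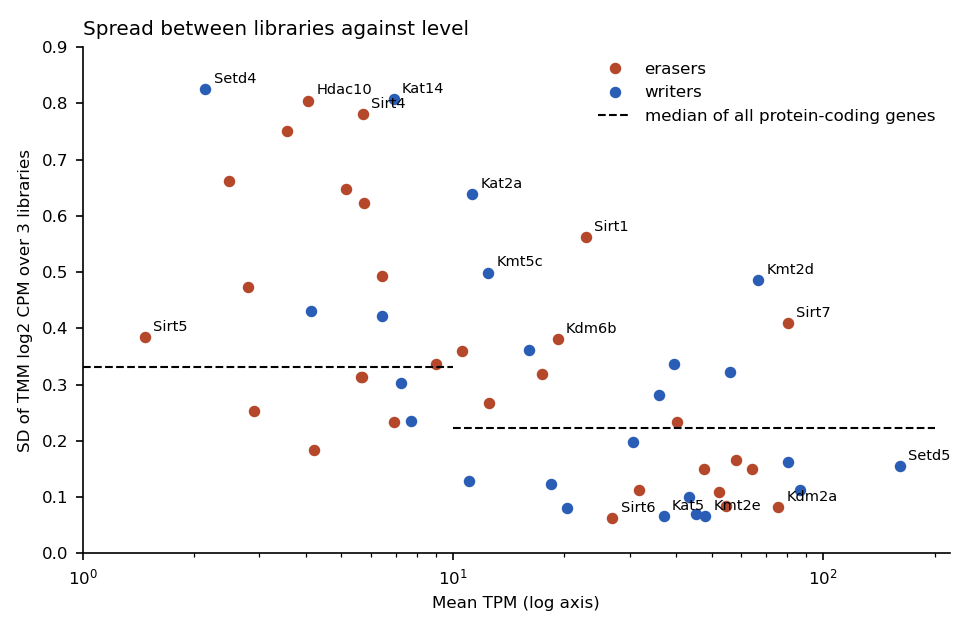
SD of TMM log2 CPM over the 3 libraries against mean TPM (log axis) for the 54 members above 1 TPM throughout. Dashed lines are medians of all protein-coding genes with at least 10 TPM in every library (right) and of those with 1 but not 10 TPM (left). Members with a mean above 10 TPM lie mostly under the right line, with Kat2a, Sirt1, Kmt5c, Kmt2d and Sirt7 farthest above it. Kat2a had 7.04 TPM in replicate 1, so the text counts it among members below 10 TPM.

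Of the members with at least 10 TPM, Sirt6, Kmt2e and Kat5 varied least, with SDs of 0.06, 0.07 and 0.07. Sirt1, Kmt5c and Kmt2d varied most, with SDs of 0.56, 0.50 and 0.49. Sirt1 was highest in replicate 1 and lowest in replicate 2, and the other pair was lowest in replicate 1 and highest in replicate 2. Kmt2d rests on 6996, 20333 and 15492 expected counts, and Sirt1 on 846, 603 and 733.

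Replicate 1, the library with the fewest counts and the most starting RNA, had the lowest TMM log2 CPM of the 3 in 41 of 54 members, against 52.1% of the 9033 genes. It was lowest in 23 of 30 erasers and 18 of 24 writers. With at least 10 TPM it was lowest in 21 of 30 members, against 43.8%, and below that in 20 of 24, against 59.4%. With DESeq2 size factors, replicate 1 was lowest in 39 of 54 members, against 49.3%. With TPM rescaled to protein-coding genes it was lowest in 40 of 54, against 60.6%. On the deposited TPM scale, replicate 1 was lowest in 28 of 54 members, against 40.8%, so the count depends on the scale. The part of depth or starting amount in this was not tested, and with 1 library per amount they cannot be told apart.

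The second transcript table, made from reads directly, gave higher levels for most members. Its summed TPM was a median of 1.32 times the gene table for members and 1.28 times for all genes with a protein-coding transcript, among those with at least 1 TPM. It was more than 1.5 times higher for 21 of 54 members, against 35.6% of those genes. Besides the 4 genes described next, they were Kdm2b, Sirt3, Sirt1, Hdac4, Hdac7, Kdm1b, Kdm4c, Kat2b, Setd4, Setd6, Kat7, Kat14, Setd1a, Kmt5a, Setd3, Kmt2e and Kat6a, by up to 2.76 times. Sirt5 had 1.47 ± 0.18 TPM in the gene table and 23.8 TPM in the second table, of which 20.5 TPM lay on Sirt5-209, a protein-coding transcript of 2425 bases. Of the 31-base stretches of Sirt5-209, 41.0% also occur in transcripts of 2794 other genes.

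**Figure D5:**
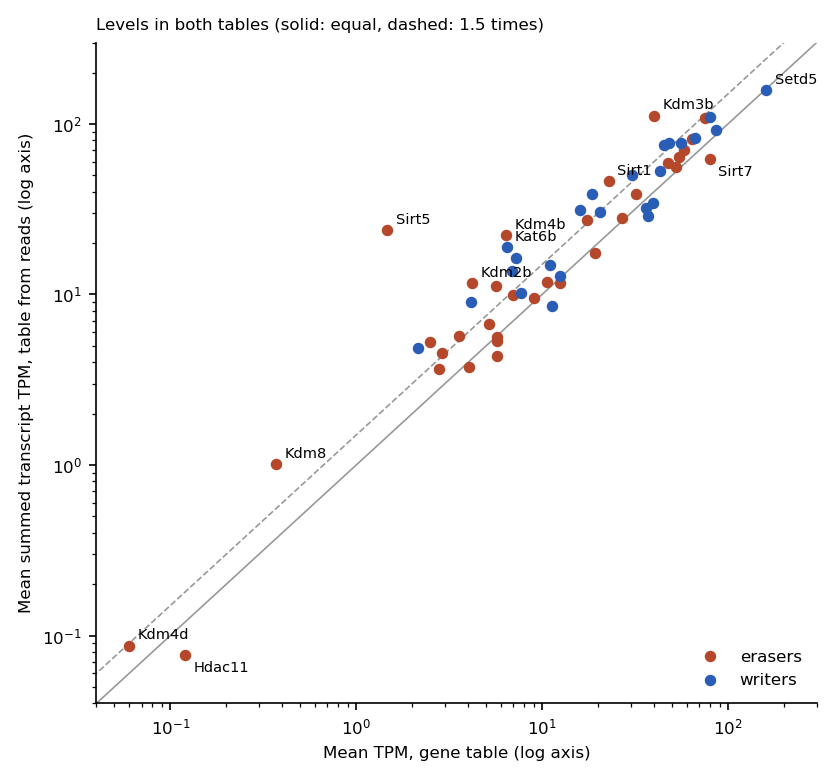
Mean level of each member in the gene table (horizontal, TPM, log axis) and in the table made from reads (vertical, summed transcript TPM, log axis), with a solid line at equal levels and a dashed line at 1.5 times. Sirt5, Kdm3b, Kdm4b and Kat6b lie well above the dashed line, and Setd5 lies on the solid one.

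For Kdm3b, Kdm4b and Kat6b, the second table put more of its TPM on 1 short noncoding transcript than on any other, and that transcript had 0 TPM in the table from alignments. Kdm3b had 40.2 TPM in the gene table and 112 in the second, of which 74.0 lay on Kdm3b-203 of 42 bases. Kat6b had 6.43 and 19.0 TPM, of which 9.49 lay on Kat6b-212 of 535 bases. Kdm4b had 6.42 and 22.3 TPM, of which 12.2 lay on Kdm4b-206 of 130 bases. Kdm4b-206 is shown because more of the Kdm4b level in the second table rests on it than on any other transcript. It is on the plus strand of chromosome 17 of mm10, with exons at 56393517 to 56393578 and 56393718 to 56393785, and no 31-base stretch of it occurs in another gene. The second exon, in capitals, lies within exon 12 of the protein-coding transcript Kdm4b-201.
Kdm4b-206: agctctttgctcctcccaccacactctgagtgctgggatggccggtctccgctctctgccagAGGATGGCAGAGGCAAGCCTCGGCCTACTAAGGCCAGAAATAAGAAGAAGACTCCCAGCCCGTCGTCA

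Other members share position with a neighbour. In 28 members a gene on the other strand overlaps, and in 17 of these that gene had a mean of at least 1 TPM. The same count was not made over all genes, so it does not set the members apart. Sirt3, with 2.49 ± 0.72 TPM, overlaps Ric8a with 38.7 ± 10.2 TPM and Psmd13 with 28.9 ± 1.5 TPM. Kmt2a overlaps the antisense gene AC061963.1 with 19.7 ± 5.11 TPM over 3406 bases, and Kat5 overlaps Rnaseh2c with 3.75 ± 0.39 TPM over 4006 bases. The labels and headers do not say if strand entered the counting, so reads in such stretches cannot be assigned with certainty. Both neighbours of Sirt3 were at more than 10 times its level. On the same strand, where strand cannot separate reads, Kmt2a for example overlaps Gm48314 with 37 ± 10.1 TPM over 2739 bases. Kat6a overlaps Gm45555 with 16.6 ± 5.14 TPM over 2602 bases, and Hdac9 overlaps Gm47357 with 6.25 ± 2.88 TPM over 4732 bases. Setd2 overlaps Gm42763 with 10.6 ± 2.92 TPM over 2087 bases, and Sirt7 overlaps Mafg with 40.2, 65.1 and 65.8 TPM over 124 bases. Some same-strand neighbours were listed at 0 in each library, among them Gm49388, which overlaps Setd1a over 14515 bases. Of the 31-base stretches of Setd1a-202, which held 90.8% of the TPM of Setd1a, 59.8% also occur in transcripts of 31 other genes.

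The members lie on 20 chromosomes, with 7 on chromosome 7 and 6 on chromosome 5. The set of RefSeq start sites used here (GRCm38.p6, the mm10 assembly) held 45 of the 57 symbols. Kdm2a, Kdm3b, Kdm4b, Kdm5a, Kdm6b, Hdac1, Hdac3, Hdac10, Kmt2b, Kmt2e, Setd1b and Kat6a were not in that set. Their absence from it does not show that RefSeq has no start for them. For 41 members the first start listed lay within 100 bases of the start of a protein-coding transcript of M21, and the 250 bases before it were read. They held a median of 17 CG dinucleotides, 15.5 in 22 erasers and 20 in 19 writers. The median was 10 in 14904 promoters of genes with a protein-coding transcript, and 16 in the 6653 of them above 1 TPM throughout. Members were thus closer to the promoters of detected genes in this count.

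Short motifs, 4 in number, were searched on both strands, none of which contains another. TATAAA was in 0 of 41 member promoters and in 12.2% of all 14904. GGGCGG was in 26 member promoters, or 63.4%, and in 44.5% of all. CCAAT was in 19, or 46.3%, against 36.5%, and CCGGAAG in 6, or 14.6%, against 9.74%. Among the promoters of genes with at least 1 TPM the shares were 5.95%, 60.6%, 36.7% and 16.8%. A match describes the letters only. Of the 15 promoters with no annotated exon in the window, those of the lowest and the highest member by mean TPM are shown with each CG in capitals. Kdm8 (chr7:125444370-125444619, plus strand) has 7, with the RefSeq start 56 bases from that of M21, and Setd2 (chr9:110532347-110532596, plus strand) has 31.
Kdm8: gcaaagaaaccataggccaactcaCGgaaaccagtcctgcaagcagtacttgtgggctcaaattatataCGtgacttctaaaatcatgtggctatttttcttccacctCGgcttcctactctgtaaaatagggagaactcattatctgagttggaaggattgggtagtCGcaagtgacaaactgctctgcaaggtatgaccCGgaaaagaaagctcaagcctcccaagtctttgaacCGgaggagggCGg
Setd2: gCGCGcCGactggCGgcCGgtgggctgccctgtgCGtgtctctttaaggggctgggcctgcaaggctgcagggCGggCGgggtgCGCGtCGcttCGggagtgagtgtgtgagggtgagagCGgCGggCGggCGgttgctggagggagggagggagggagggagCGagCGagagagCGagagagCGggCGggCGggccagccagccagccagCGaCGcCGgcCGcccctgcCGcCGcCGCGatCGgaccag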

How the data were processed

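RNA of 3 libraries of 1 group was analysed. Per the file headers, the authors deposited expected counts, effective lengths and TPM per gene and per transcript from alignments, and estimated counts and TPM per transcript from reads directly, on mm10 with GENCODE M21. The sources used here do not give the quantifiers or any use of strand. Deposited TPM sum over all rows of a table. The 26345 rows that are no annotated gene held 1.34%, 0.292% and 0.416% of expected counts and were left out of library sizes. A count of 0 allows up to 3 counts, and this floor covers counting error only. The median TPM, differences of medians of log2(TPM + 1) and transcript shares were computed in Python 3.11.15 with pandas 2.3.3 and SciPy 1.17.1. Expected counts were rounded for edgeR 4.0.16 (TMM, log2 CPM, prior count 1). DESeq2 1.42.0 size factors were an alternative, both in R 4.3.3. Steps were tested on simulated data. Libraries were compared pairwise by chi-square over genes, and chi-square per degree of freedom was 25.8 to 72.8, so none was a copy. No test was made, since there is 1 condition.

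Members and lists were chosen with earlier results of these data known. Values of every library were due for Kdm6b, Hdac3, Sirt1, Kmt2a and Setd2, for the 2 highest and the lowest member of each class, and for the 3 most and 3 least variable members at 10 TPM, 49 genes in all. The 8 further members are also named. In each other list the 3 highest and the lowest were due. They were named for other writers, other erasers and the partner subunits. No gene was named from the remodellers or from Mediator and RNA polymerase II, which are given by their medians. A stretch of 31 bases counted as shared if it occurs in a transcript of another gene.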

Additional observations from a re-analysis of the deposited data

How the results depend on the processing

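No paired analysis was possible because there is 1 group. The eraser minus writer difference stayed negative in every alternative. From -1.5 it moved to -1.21 in the table from reads, -1.29 without members under 1 TPM, -1.08 as a difference of means, -0.91 without members known for other substrates and -1.72 on TMM log2 CPM. In the same order, leaving out the last and putting TPM rescaled to protein-coding genes at the end, the median of 13.3 TPM over all members became 22.2, 15.7, 27.0, 18.1 and 44.5. For erasers, 8.02 TPM became 13.4, 9.53, 20.8, 13.5 and 26.6. For writers, 25.1 TPM became 32.2 in the table from reads, 35.6 as a mean and 82.7 rescaled. The table from reads without transcripts under 300 bases, an alternative chosen after seeing the data, gave 20.9 for all members, 11.2 for erasers and 32.2 for writers. The retained-intron share of erasers, 52.1%, was 48.1% as a mean over genes. That of writers, 38.9%, was 43.3% in the table from reads, 42.4% at 10 TPM and 41.8% as a mean. The median SD of 0.31 became 0.28 with DESeq2 size factors, 0.22 on log2(TPM + 1), 0.15 at 10 TPM and 0.31 with no filter. Leaving out 1 library gave 0.14 without replicate 1, 0.27 without replicate 2 and 0.35 without replicate 3, so it rests mostly on replicate 1. Members at 10 TPM numbered 30, against 36 in the table from reads and 44 rescaled. The causes were not tested. Depth limits Kdm4d, Hdac11 and Kdm8 most, which have at most 20 expected counts per library. In replicate 1 it also limits Setd4, Sirt4 and Sirt5, with 11, 16 and 18 expected counts there.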
